A study of Arabidopsis thaliana with 44 samples.

Results

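A set of 41 nuclear genes for proteins of the photosynthetic light reactions was examined across 4 genotypes of Arabidopsis thaliana. They were taken by gene identifier from the table of 33341 genes and comprise 4 antenna genes of photosystem I (LHCA1 to LHCA4), 8 genes of the major antenna of photosystem II (LHCB1.1 to LHCB1.5, LHCB2.1, LHCB2.2 and LHCB3), 6 genes of its minor antenna (LHCB4.1 to LHCB4.3 and LHCB5 to LHCB7), 13 photosystem I subunit genes and 10 photosystem II subunit genes. All 41 passed the filter on low counts, so every gene of the set is among the 20375 genes tested. The samples were shoots of 3-week-old soil-grown plants kept under 16 h of light. Mutants carried the allele pkl-1, clf-28 or pie1-5, and the wild type (WT) served as control. PKL is a chromatin remodeler of the CHD3 type. CLF is a Polycomb methyltransferase that writes H3K27me3, methylation of lysine 27 on histone H3. PIE1 is the catalytic subunit of SWR1, which exchanges the histone H2A for its variant H2A.Z. RNA-seq had 3 libraries per genotype, with 21.6 to 33.1 M reads on genes in each, and anti-H3K27me3 and anti-H2A.Z immunoprecipitations had 2 per genotype.

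Photosystem II and photosystem I are the pigment-protein complexes of the thylakoid membrane that turn absorbed light into electron flow, from water through photosystem II to photosystem I and on to ferredoxin. Their reaction-centre cores are plastid-encoded, whereas most peripheral subunits and all chlorophyll a/b-binding antenna proteins are nuclear-encoded and imported into the chloroplast. The antenna genes are classical light-induced and clock-regulated genes of green tissue, activated by the transcription factors GLK1 and GLK2.

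The set held some of the most abundant nuclear transcripts of the shoots, and PSAF ranked 8 among nuclear genes by WT count. The 41 genes took 7.47% to 8.27% of the reads on nuclear genes in pkl-1, 8.72% to 9.12% in clf-28 and 6.58% to 8.18% in pie1-5, against 8.55% to 9.74% in WT. Levels are given as CPM, the count of a gene scaled to 1 M reads of its library after TMM scaling. Between genes, they are compared as mean CPM over all 12 libraries per kb of the gene's span, introns included. On that scale, PSAG, a small membrane subunit of photosystem I, was the highest at 4558 CPM per kb. LHCB1.3 led the major antenna at 3652 CPM per kb, PSBY, a small photosystem II membrane protein, led the photosystem II subunits at 2889, LHCA1 led the photosystem I antenna at 1122 and LHCB6, the minor antenna protein CP24, led the minor antenna at 655. The lowest of their groups were LHCB3 at 545, LHCA3 at 250.4, the photosystem I subunit gene PSAE2 at 229 and PSBS, the sensor of heat dissipation of excess light, at 60.6 CPM per kb. LHCB7, a rarely expressed relative of the minor antenna genes, stood at only 1.17 CPM per kb. Its reads numbered 136 in pkl-1, 201 in clf-28, 209 in pie1-5 and 207 in WT, each summed over 3 libraries, against at least 783 for every other gene of the set in every genotype.

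Several features of the libraries bear on these genes. PIE1 stood at 3.73, 3.95 and 5.69 CPM in pie1-5, against 8.10, 6.86 and 10.1 CPM in WT (log2 fold change −0.90 ± 0.27 SE, adjusted p = 0.0565, edgeR quasi-likelihood test). PKL and CLF transcripts were 1.85-fold and 6.81-fold higher in pkl-1 and in clf-28 than in WT, so neither mutant shows a loss of its transcript. CLF set the clf-28 libraries apart, at 22.8 to 34.2 CPM, against 2.72 to 5.99 CPM in all other libraries. PKL did not set pkl-1 apart, at 29.0 to 35.2 CPM there and 30.9 CPM in clf-28 3. The library pie1-5 1 stood apart in clock and light-stress genes. CCA1 and LHY, the morning genes of the circadian clock, stood at 44.1 and 59.6 CPM in it, against 1.15 to 7.25 and 0.573 to 3.95 CPM in the other 11 libraries. ELIP1 and ELIP2, antenna relatives made under light stress, stood at 55.2 and 91.5 CPM in it, against 0.251 to 2.04 and 0.497 to 2.63 CPM elsewhere. Its TOC1, a clock gene of the evening, stood at 4.36 CPM, below all other libraries.

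The remaining 8 mutant libraries also differed from the 3 WT libraries in clock genes. TOC1 measured 19.0 to 33.7 CPM in these 8, against 7.29 to 8.44 CPM in WT. FKF1, an afternoon gene of the flowering pathway, measured 6.63 to 14.3 CPM in the 8 and 0.0750 to 0.615 CPM in WT, and CCA1 measured 1.15 to 2.36 CPM in the 8 and 4.80 to 7.25 CPM in WT. The labels give no hour of harvest, so genotype and time of day cannot be told apart, and the part of the clock genes in the results below was not tested. Most counts and medians that rest on pie1-5, and most fold changes in pie1-5 of genes of the set described here, are therefore also given without pie1-5 1. Root markers also differed between genotypes. Their summed CPM, over 7 genes of which EXPA7 is at 0 in every library and almost all the rest comes from PYK10 and SCR, was 70.9 to 77.0 in pkl-1, 47.7 to 57.3 in clf-28 and 88.2 to 99.3 in pie1-5, against 38.8 to 60.3 in WT, so that clf-28 lay within the WT range and the other mutants above it. Summed CPM of 6 petal, stamen and pollen markers was high in pie1-5 2 alone, at 10.2, while pie1-5 1 at 1.53 lay within the WT range of 1.13 to 2.35 and the other libraries were at 0.764 to 3.75. The part of root and flower markers in the results was not tested. In whole shoots, fewer green cells and less RNA per cell cannot be told apart.

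**Figure D1:**
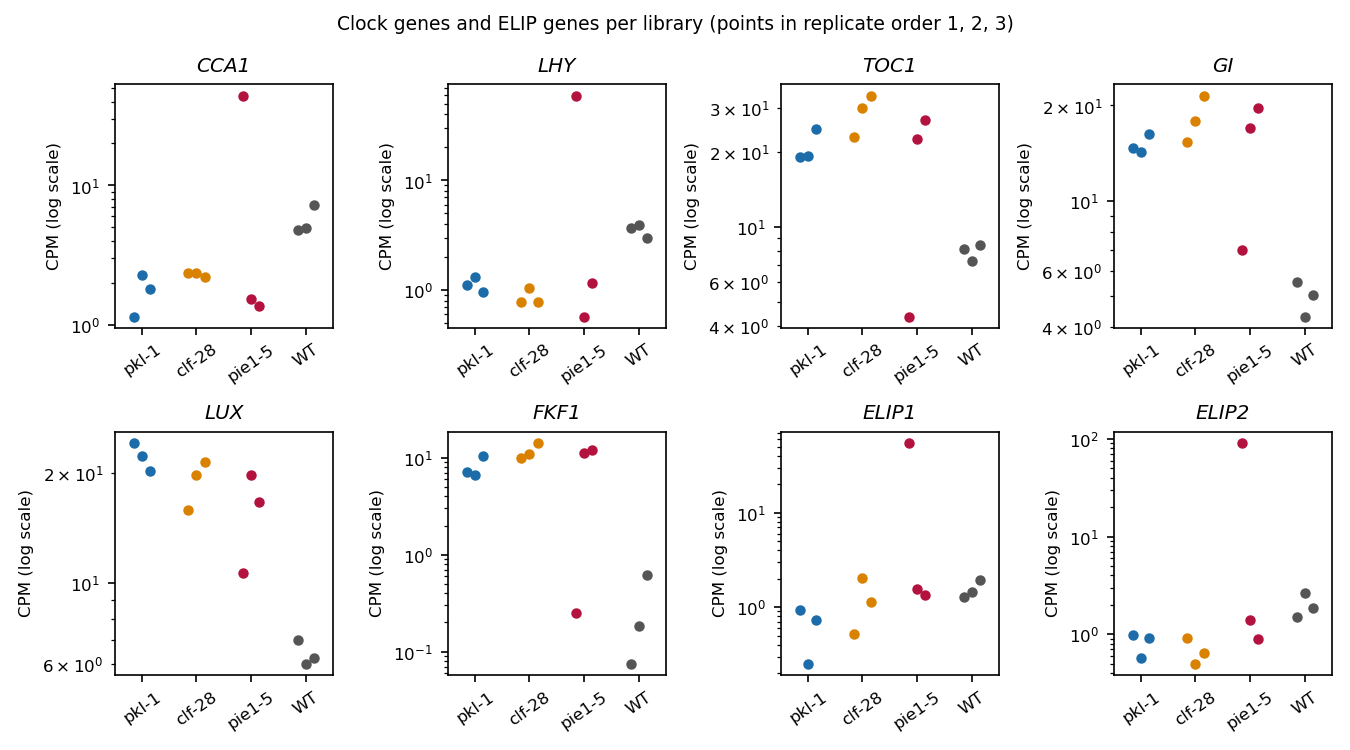
CPM (log scale) of 6 clock genes and of ELIP1 and ELIP2 in each RNA-seq library, 3 points per genotype in replicate order. The library pie1-5 1 has the highest CCA1, LHY, ELIP1 and ELIP2 of all 12, and the other 8 mutant libraries lie above the 3 WT libraries in TOC1, GI, LUX and FKF1.

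In pie1-5, every photosystem and antenna gene had a fitted level below that of WT, but few passed the test singly. The log2 fold change against WT was below 0 for 41 of 41 genes, with a median of −0.43 and a range of −0.67 to −0.06, whereas 49.2% of all genes tested were below 0 and their median was 0.01. All 3 pie1-5 libraries lay below all 3 WT libraries for 31 of the 41 genes, against 12.7% of all genes tested. With edgeR's quasi-likelihood test and Benjamini-Hochberg adjustment over all genes, 2 of the 41 were called lower and none higher, where 3.56% of all genes were called lower and 3.8% higher. The 2 are LHCA4 and LHCB4.2. At an unadjusted p below 0.05, 23 were lower (10.7% of all genes) and none higher (11.4% of all genes). The count of called genes was the least settled of these values. It was 11 lower with DESeq2 (LHCA1, LHCA3, LHCA4, LHCB1.1, LHCB2.1, LHCB2.2, LHCB4.2, LHCB5, LHCB6, PSAH2 and PSBW). With edgeR it was 0 when pie1-5 and WT were fitted without the other genotypes, and 0 without any single WT library. It was also 0 without pie1-5 3, 6 without pie1-5 2 and 4 without clf-28 3. The shares of all genes above are those of the main fit, and those of these other fits are not given here. The authors' deposited table had 5 of the 41 lower at an FDR below 0.05, LHCA1, LHCA4, LHCB2.1, LHCB2.2 and LHCB4.2, against 4.97% of its 18489 genes, and gave all 41 a negative log2 fold change. Without pie1-5 1, 41 of 41 remained below 0 with a median of −0.41, both remaining libraries lay below all of WT for 36 genes (20.0% of all genes), and 3 were called lower and none higher (4.68% and 4.96% of all genes).

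**Figure D2:**
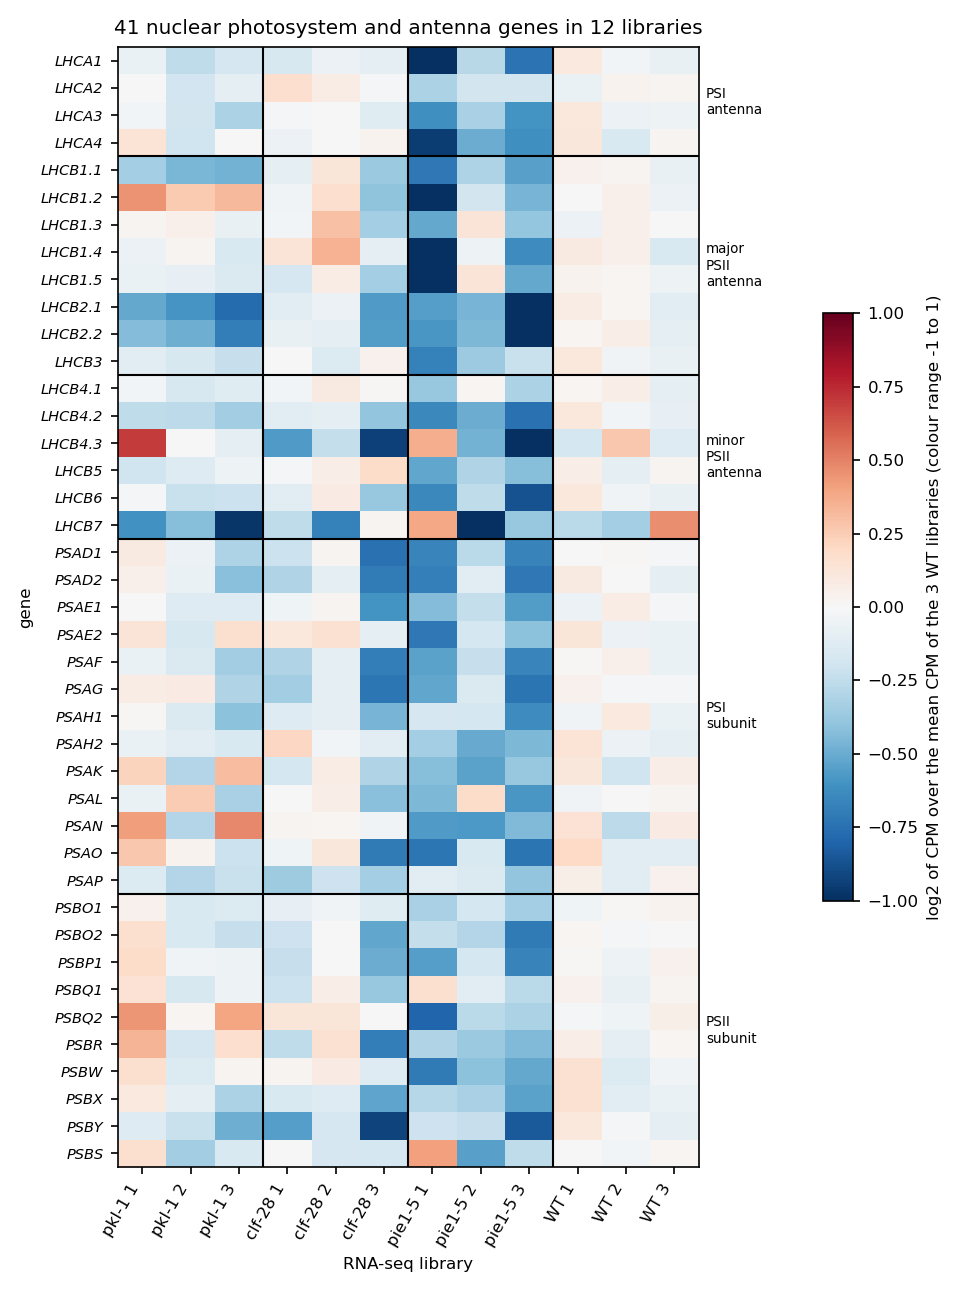
Log2 of the CPM of each of the 41 genes (down the page, grouped by role) in each of the 12 RNA-seq libraries (across), over the mean CPM of the 3 WT libraries, with blue for lower and red for higher. The pie1-5 columns are blue for most genes, the column of clf-28 3 is bluer than those of clf-28 1 and 2, and the row of LHCB1.2 is red in pkl-1.

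The pie1-5 libraries were not alike in the size of the difference. The median over the 41 genes of the log2 ratio to the WT mean was −0.54 in pie1-5 1, −0.27 in pie1-5 2 and −0.55 in pie1-5 3. It was 0.04, −0.02 and −0.05 in WT 1, 2 and 3. In pie1-5 3 all 41 genes were below the lowest WT library, and in pie1-5 1 and pie1-5 2 36 each. Single libraries of the other mutants had 11, 29 and 28 such genes in pkl-1 and 20, 13 and 31 in clf-28, in replicate order. The share of all genes was not counted for single libraries.

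The photosystem I antenna proteins bind to the core as a belt of 4 and pass excitation to it. LHCA4 (AT3G47470) measured 513, 701 and 648 CPM in pie1-5, against 1070.2, 889 and 1011 CPM in WT. No pie1-5 library reached any WT library, and LHCA4, which overlaps the gene ATSMC2, was 1.60-fold lower (−0.67 ± 0.18 SE, n = 3, adjusted p = 0.0318). It was not called without pie1-5 1 (−0.55 ± 0.18, adjusted p = 0.0544), nor without any single WT library, clf-28 1 or pie1-5 3, with adjusted p of 0.0294 to 0.114 over the 12 fits that each left out 1 library. LHCA1 (AT3G54890) measured 1069.6, 1792 and 1303 CPM in pie1-5, against 2324, 2123 and 2056 in WT, and LHCA3 312, 382 and 315 CPM in pie1-5, against 515, 458 and 459.9 in WT. In both genes, every pie1-5 library was below every WT library, with log2 fold changes of −0.64 ± 0.20 and −0.51 ± 0.16 that missed the threshold (adjusted p = 0.0602 and 0.0759), and without pie1-5 1 these were −0.48 ± 0.19 and −0.45 ± 0.17 (0.112 and 0.1104). LHCA2 was the nearest of the 4 to WT, at 572, 626 and 627 CPM in pie1-5, against 681, 728 and 728 in WT (−0.23 ± 0.16, adjusted p = 0.4396, and −0.18 ± 0.17 without pie1-5 1). In pkl-1 and clf-28 the 4 genes stayed between −0.17 and 0.08 on the log2 scale, their libraries overlapped those of WT, and none was called.

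The major antenna of photosystem II is a trimer of LHCB1, LHCB2 and LHCB3 proteins, the most abundant chlorophyll-binding proteins of leaves. None of its 8 genes was called against WT in any mutant in the main edgeR fit of all libraries, and LHCB2.1 and LHCB2.2 came closest. Both were called in pie1-5 by edgeR with a replicate block and without the filter on low counts. In pkl-1, LHCB2.1 was called with the block, and both when only pkl-1 and WT were fitted. DESeq2 called LHCB1.1, LHCB2.1 and LHCB2.2 lower in pie1-5 and LHCB2.1 lower in pkl-1. LHCB2.1 (AT2G05100) measured 783, 741 and 653 CPM in pkl-1, 1032, 1074 and 755 in clf-28 and 764, 807 and 535 in pie1-5, against 1176, 1133 and 1040.4 CPM in WT. The pkl-1 and pie1-5 libraries were all below those of WT, while those of clf-28 overlapped them through clf-28 2. Its log2 fold change was −0.62 ± 0.20 in pkl-1 (adjusted p = 0.1004) and −0.67 ± 0.20 in pie1-5 (adjusted p = 0.0539). LHCB2.2, its near-identical copy, gave −0.53 ± 0.20 in pkl-1 and −0.67 ± 0.20 in pie1-5 (adjusted p = 0.167 and 0.0528). Without pie1-5 1, both were called lower in pie1-5 (LHCB2.1 −0.73 ± 0.21, adjusted p = 0.0308; LHCB2.2 −0.72 ± 0.21, 0.0349), and LHCB2.1 was called lower in pkl-1 (−0.62 ± 0.18, 0.0405). The third LHCB2 gene, LHCB2.3, is no member of the set, and was 2.47-fold lower at 338, 346 and 220.1 CPM in pie1-5, against 761, 793 and 684 in WT (−1.31 ± 0.22, adjusted p = 0.00214).

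LHCB3 (AT5G54270), the third protein of the trimer, measured 527, 655 and 724 CPM in pie1-5, against 907, 825 and 799.7 in WT, with all pie1-5 libraries below WT (−0.41 ± 0.17, adjusted p = 0.169, and −0.29 ± 0.17 without pie1-5 1). LHCB1 genes were uneven between the pie1-5 libraries. LHCB1.4 (AT2G34430) measured 318, 1109 and 742 CPM in pie1-5, against 1222, 1188 and 1034 CPM in WT. Only pie1-5 1 and pie1-5 3 were below WT, and its log2 fold change of −0.67 ± 0.31 was far from the threshold (adjusted p = 0.216). Without pie1-5 1 it was −0.31 ± 0.20 (0.386). LHCB1.3 (AT1G29930), the most abundant LHCB1 transcript, measured 3273, 5096 and 3563 CPM in pie1-5, against 4489.7, 4844 and 4659 in WT. Here pie1-5 2 was above all of WT and the other 2 below it (−0.23 ± 0.22, adjusted p = 0.591, and −0.10 ± 0.21 without pie1-5 1).

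The minor antenna proteins link the trimers to the photosystem II core. LHCB4.2 (AT3G08940), 1 of 3 genes for the minor antenna protein CP29, measured 467, 465 and 438 CPM in pkl-1, 519, 521 and 423 in clf-28 and 357, 396 and 332 in pie1-5, against 599, 548 and 525 CPM in WT. All 9 mutant libraries were below the lowest WT library of this gene, which overlaps AT3G08943. The difference passed the test in pie1-5, at 1.54-fold lower (−0.62 ± 0.16, n = 3, adjusted p = 0.0303), and not in pkl-1 (−0.29 ± 0.16, 0.401) or clf-28 (−0.19 ± 0.16, 0.679). It was called in pie1-5 without pie1-5 1 as well (−0.61 ± 0.17, adjusted p = 0.0309), but not without any single WT library or pie1-5 3 (0.0212 to 0.108 over the 12 fits). The call was also lost without the filter on low counts, and when only pie1-5 and WT were fitted. Its paralog LHCB4.1 (AT5G01530) measured 462, 610.1 and 482 CPM in pie1-5, against 608, 630.2 and 565 in WT, and the groups overlapped (−0.21 ± 0.17, adjusted p = 0.4996, and −0.14 ± 0.17 without pie1-5 1). LHCB5 (CP26) and LHCB6 were below WT in every pie1-5 library, at −0.41 ± 0.16 and −0.57 ± 0.20 on the log2 scale (adjusted p = 0.136 and 0.0917), and at −0.36 ± 0.17 and −0.53 ± 0.20 without pie1-5 1.

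LHCB4.3 and LHCB7 were weakly expressed and varied within each genotype. LHCB4.3 (AT2G40100) measured 22.2, 13.6 and 12.8 CPM in pkl-1, 9.19, 11.5 and 7.13 in clf-28 and 17.6, 9.81 and 5.28 in pie1-5, against 12.04, 16.4 and 12.4 CPM in WT. It had the lowest log2 fold change of the set in clf-28 (−0.56 ± 0.34, adjusted p = 0.518), where all 3 libraries were below WT, and 1 high library each in pkl-1 and pie1-5. LHCB7 (AT1G76570) measured 1.72, 1.95 and 1.34 CPM in pkl-1, 2.199, 1.64 and 2.67 in clf-28 and 3.42, 1.27 and 2.01 in pie1-5, against 2.18, 2.07 and 3.604 CPM in WT. It had the lowest log2 fold change of the set in pkl-1 (−0.64 ± 0.39, adjusted p = 0.437). Without pie1-5 1, the log2 fold change in pie1-5 was −0.85 ± 0.29 for LHCB4.3 and −0.66 ± 0.41 for LHCB7, against −0.32 ± 0.34 and −0.22 ± 0.38 with it, and neither was called. The intervals of LHCB7 were wide, with 95% limits of −1.40 and 0.12 in pkl-1 and −0.97 and 0.53 in pie1-5.

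Photosystem I subunit genes covered the stromal docking site of ferredoxin (PSAD1, PSAD2, PSAE1, PSAE2) and the plastocyanin side (PSAF, PSAN). They also covered small membrane subunits that bind the antenna or the mobile trimers (PSAG, PSAH1, PSAH2, PSAK, PSAL, PSAO). PSAP was counted in the same group. In pie1-5, 11 of the 13 had all libraries below WT (12 without pie1-5 1), and the log2 fold changes of the 13 ran from −0.53 to −0.21. None was called by edgeR (lowest adjusted p = 0.118, PSAH2), and DESeq2 called PSAH2 lower. PSAG (AT1G55670), the highest per kb, measured 2842, 3682 and 2462 CPM in pie1-5, against 4199, 4016 and 4019 in WT (−0.45 ± 0.22, adjusted p = 0.241, and −0.41 ± 0.22 without pie1-5 1). PSAE2 (AT2G20260), the lowest per kb, measured 150.4, 219 and 186 CPM in pie1-5, against 268, 238 and 235 in WT (−0.42 ± 0.18, 0.178, and −0.28 ± 0.17 without pie1-5 1). Both genes were thus lower in every pie1-5 library than in any WT library. PSAN, at 323, 320.4 and 351 CPM in pie1-5, against 527, 399 and 506 in WT, had the lowest fold change of the 13 (−0.53 ± 0.20, 0.132, and −0.51 ± 0.21 without pie1-5 1). PSAL and PSAP were the 2 whose pie1-5 and WT libraries overlapped.

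Among the photosystem II subunits, PSBO, PSBP, PSBQ and PSBR belong to or hold the water-splitting side of the complex, and PSBW, PSBX and PSBY are small membrane proteins. Of the 10, 8 were below WT in every pie1-5 library. None was called by edgeR, and DESeq2 called PSBW lower. PSBW came nearest to the threshold, at 399, 490.3 and 456 CPM in pie1-5, against 726, 593 and 636 in WT (−0.54 ± 0.17, adjusted p = 0.0683, and −0.46 ± 0.18 without pie1-5 1). PSBY (AT1G67740), the highest of the 10 per kb, measured 3909, 3679 and 3062 CPM in pkl-1, 2928, 3812 and 2257 in clf-28 and 3713, 3652 and 2395 in pie1-5, against 4606, 4235 and 4014 CPM in WT. All 9 mutant libraries were below all 3 WT libraries, with −0.52 ± 0.23 in clf-28, the lowest adjusted p of the set there (0.337), −0.27 ± 0.23 in pkl-1 (0.604) and −0.40 ± 0.23 in pie1-5 (0.336, and −0.50 ± 0.23 without pie1-5 1).

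With all libraries, the 2 exceptions in pie1-5 were PSBS and PSBQ1, the genes of the set nearest to WT there, and both were exceptions through pie1-5 1. Without it, all 10 genes had both remaining pie1-5 libraries below WT. PSBS (AT1G44575) measured 228, 159.8 and 184 CPM in pkl-1, 204, 182 and 181 in clf-28 and 271, 140.1 and 171 in pie1-5, against 205, 200.4 and 206 CPM in WT. The library pie1-5 1, which had the high ELIP1 and ELIP2 levels, was above all of WT, and the other 2 were below it. The log2 fold change was −0.07 ± 0.22 in pie1-5 (95% interval −0.50 to 0.35, adjusted p = 0.888), −0.10 ± 0.22 in pkl-1 and −0.11 ± 0.22 in clf-28. Without pie1-5 1, PSBS gave −0.39 ± 0.18 in pie1-5 (adjusted p = 0.194). PSBQ1 (AT4G21280) measured 291, 241 and 216 CPM in pie1-5, against 268, 248 and 266 in WT (−0.06 ± 0.18, adjusted p = 0.877), the highest log2 fold change of the set in pie1-5, and −0.19 ± 0.18 (0.575) without pie1-5 1. Its paralog PSBQ2 (AT4G05180) measured 197, 283 and 274 CPM in pie1-5, against 337, 330.3 and 356 in WT (−0.44 ± 0.18, 0.161, and −0.29 ± 0.17 without pie1-5 1), below WT in all 3 libraries. PSBQ1 took 59.6%, 46.0% and 44.1% of the reads of the pair in pie1-5, against 44.3%, 42.9% and 42.8% in WT, and the groups overlapped. Its share was below all of WT in the other mutants, at 38.4%, 40.3% and 36.0% in pkl-1 and 37.6%, 42.4% and 36.9% in clf-28.

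**Figure D3:**
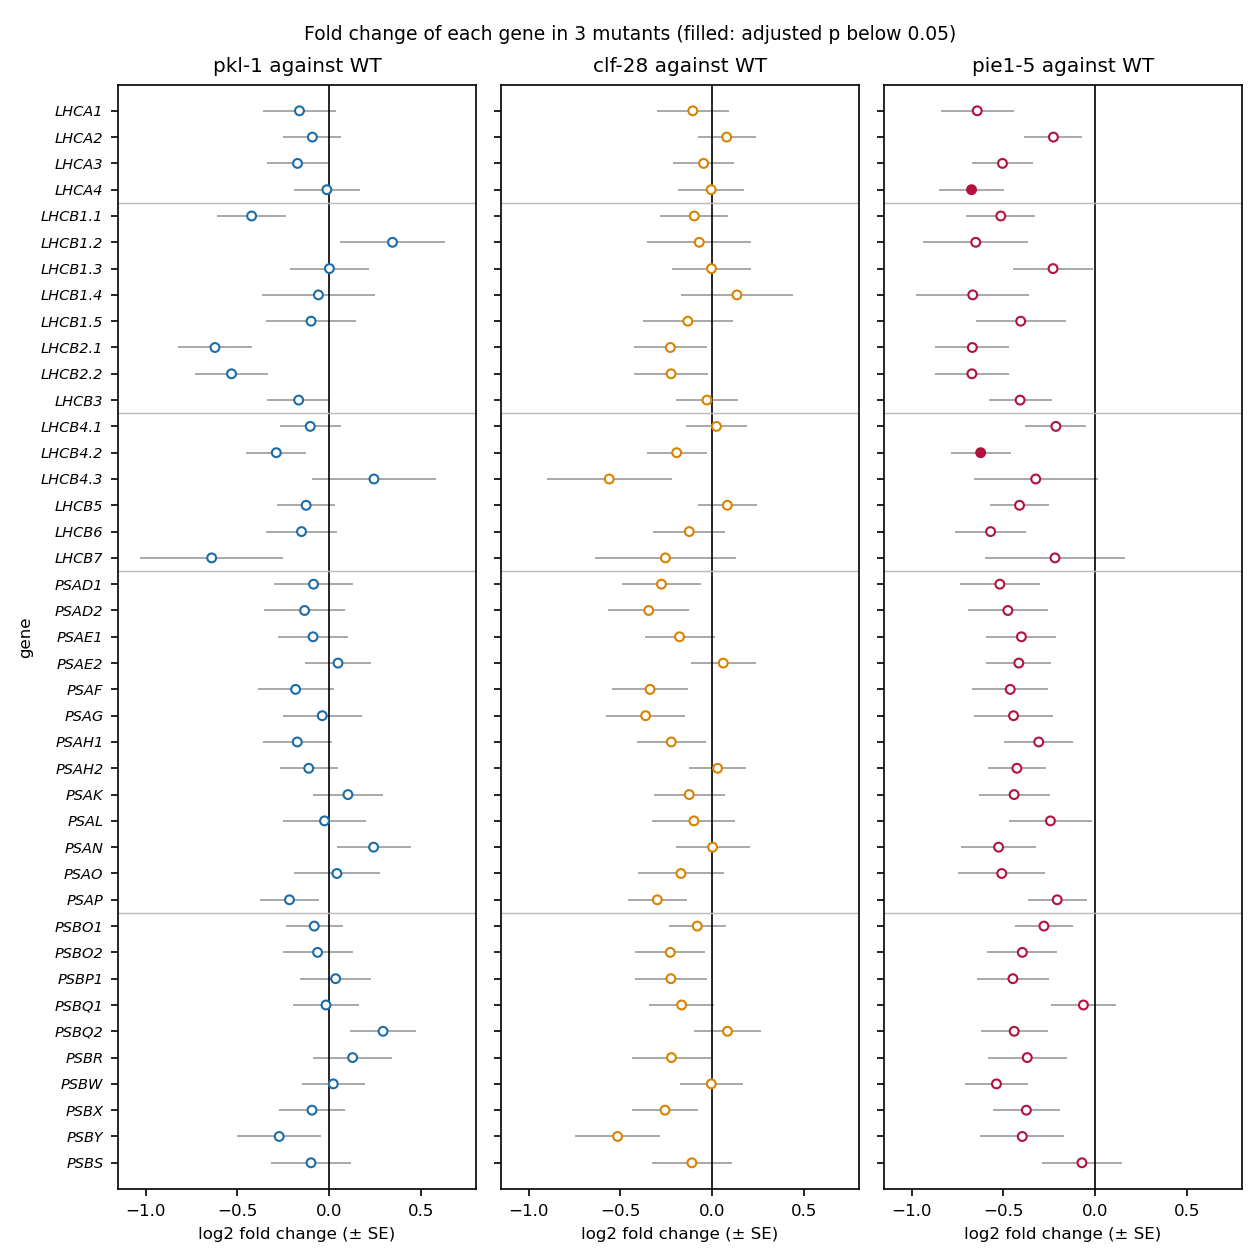
Log2 fold change against WT of the 41 genes in pkl-1, clf-28 and pie1-5 (edgeR, n = 3 libraries per genotype), with bars of 1 SE and filled points for adjusted p below 0.05. In pie1-5 all points lie left of 0 and LHCA4 and LHCB4.2 are filled, while in pkl-1 and clf-28 none is filled and most genes lie close to 0.

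In pkl-1, none of the 41 genes was called in the main edgeR fit, where 1.45% of all genes were called higher and 2.58% lower. At an unadjusted p below 0.05, 3 of the 41 were lower (9.21% of all genes) and none higher (8.09% of all genes), and DESeq2 called 1, LHCB2.1, lower. Without pie1-5 1, which changes the shared estimate of the spread, edgeR called LHCB2.1 lower as well, with 4.66% of all genes called lower and 3.47% higher. The log2 fold change was below 0 for 30 of the 41 genes (49.5% of all genes). The median log2 fold change of the set was −0.09, against 0.01 over all genes tested. By library, the median against the WT mean was 0.01 in pkl-1 1, −0.15 in pkl-1 2 and −0.15 in pkl-1 3. By share of the reads on nuclear genes, pkl-1 1 was instead the lowest of the 3, at 7.47%. Its TMM factor of 0.806 was the lowest of all libraries, and the part of the scaling was not tested. All pkl-1 libraries were below all WT libraries for 9 genes (13.2% of all genes) and above them for 1 (12.1% of all genes). The 9 became 22 without pkl-1 1 and 14 without WT 3, and the median −0.14 without pkl-1 1 and −0.05 without pkl-1 3. Of the 9, 5 are in the major antenna, LHCB1.1, LHCB1.5, LHCB2.1, LHCB2.2 and LHCB3, and the 1 above is LHCB1.2.

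Within the LHCB1 genes, the neighbours LHCB1.1 and LHCB1.2 differed in direction in pkl-1. LHCB1.2 (AT1G29910) measured 1623, 1423 and 1484 CPM in pkl-1, 1162, 1335 and 898 in clf-28 and 363, 1044 and 862 in pie1-5, against 1194, 1229 and 1140.3 CPM in WT. All pkl-1 libraries were above WT, the highest log2 fold change of the set in pkl-1, and it missed the threshold (0.35 ± 0.28, adjusted p = 0.591). LHCB1.1 (AT1G29920) measured 1840.3, 1699 and 1675 CPM in pkl-1, 2193, 2535 and 1802 in clf-28 and 1416, 1878 and 1595 in pie1-5, against 2394, 2375 and 2216 CPM in WT. All pkl-1 libraries were below WT, again short of the threshold (−0.42 ± 0.19, adjusted p = 0.252). LHCB1.2 took 46.9%, 45.6% and 47.0% of the reads of the pair in pkl-1, 34.6%, 34.5% and 33.3% in clf-28 and 20.4%, 35.7% and 35.1% in pie1-5, against 33.3%, 34.1% and 34.0% in WT. The 3 pkl-1 shares lay above all 9 others, and the low share belongs to pie1-5 1. This share was singled out after the values were seen, among 39 comparisons of shares between copies. The exact permutation test, 2-sided, gave p = 0.1 for pkl-1 against WT, the smallest that 3 libraries against 3 can give, and 0.325 after Benjamini-Hochberg adjustment over the 39. Full separation from WT was not particular to this pair. The same p was reached by other shares, among them PSBQ1 of the PSBQ genes in pkl-1 and clf-28, and LHCB4.1 of the LHCB4 genes in pkl-1 and pie1-5. The 2 genes are near-identical in sequence, and how the authors' counting split reads between such copies is not given in the sources used here, so the levels of single LHCB1 copies, and of LHCB2.1 and LHCB2.2, are uncertain.

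**Figure D4:**
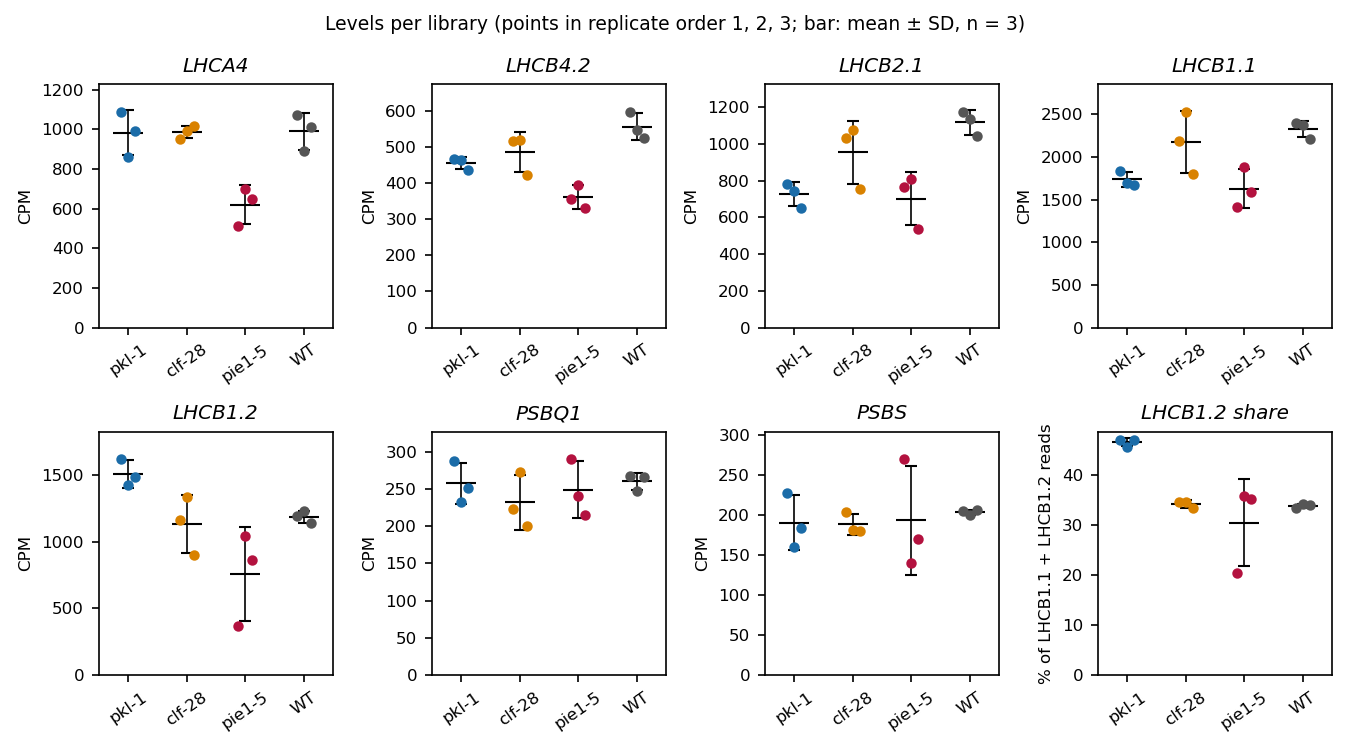
CPM of 7 genes in each RNA-seq library (points in replicate order, bar for mean ± SD, n = 3) and, in the last panel, the percentage of LHCB1.1 plus LHCB1.2 reads that fell on LHCB1.2. LHCA4 and LHCB4.2 are below WT in all pie1-5 libraries, PSBS and PSBQ1 are not, with pie1-5 1 above WT, and the LHCB1.2 share is 45.6% to 47.0% in pkl-1 and at most 35.7% in every other library.

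In clf-28, none of the 41 genes was called by edgeR, where 0.918% of all genes were called higher and 1.23% lower, and DESeq2 called none either. At an unadjusted p below 0.05, 1 gene was lower, PSBY (6.96% of all genes), and none higher (6.51%). The log2 fold change was below 0 for 33 of the 41 genes (50.4% of all genes). The median log2 fold change was −0.12, against −0.00 over all genes tested. All clf-28 libraries were below WT for 9 genes (10.8% of all genes), 5 of them photosystem I subunits, and above it for none (10.5% of all genes). These values leaned on single libraries. The 9 became 20 without clf-28 2. Full separation is easier with 2 libraries on a side, and the share of all genes was not counted for that fit. The median of the set against the WT mean was −0.09 in clf-28 1, 0.01 in clf-28 2 and −0.37 in clf-28 3, and the median log2 fold change was −0.04 without clf-28 3 and −0.23 without clf-28 2. LHCB1.4 had the highest log2 fold change of the set, at 1252, 1459 and 1071 CPM in clf-28, against 1222, 1188 and 1034 in WT (0.14 ± 0.31, adjusted p = 0.906).

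Between mutants, pie1-5 was the low one on the TMM-scaled levels. By share of the reads on nuclear genes, its range of 6.58% to 8.18% overlapped the 7.47% to 8.27% of pkl-1. In pkl-1 against pie1-5, 5 of the 41 genes were called higher, against 4.73% of all genes, and none lower (6.27% of all genes). The 5 were LHCA4 (0.66 ± 0.18, adjusted p = 0.0259), LHCB1.2 (1.00 ± 0.29, 0.0351), PSAN (0.77 ± 0.20, 0.0225), PSBQ2 (0.74 ± 0.18, 0.01596) and PSBW (0.56 ± 0.17, 0.0454). All pkl-1 libraries were above all pie1-5 libraries for 18 genes (14.7% of all genes). Without pie1-5 1, 4 were called higher (4.93% of all genes). These were LHCB1.2 (0.66 ± 0.19, 0.0317), PSAN (0.75 ± 0.21, 0.0273), PSBQ2 (0.58 ± 0.17, 0.0343) and LHCB4.3 (1.09 ± 0.29, 0.0172). No gene was called without pkl-1 1 or without pkl-1 3, and PSBW, nearest to the threshold, was called without clf-28 3 but lost in the other 11 fits that left out 1 library (adjusted p up to 0.152). In clf-28 against pie1-5, LHCA4 was called higher (0.67 ± 0.18, 0.0288), 1 of 41 against 3.63% of all genes, and none was called lower (5.12% of all genes). The count of called genes was 8 with DESeq2, 0 without any single clf-28 library, pie1-5 1 (4.01% of all genes) or pie1-5 3, and 3 without pie1-5 2. The share of all genes is not given for the DESeq2 fit or for the fit without pie1-5 2. All clf-28 libraries were above all pie1-5 libraries for 14 genes (13.9% of all genes). In the main fit, none was called in pkl-1 against clf-28, where 1.24% of all genes were called higher and 1.49% lower. There, 1 of the 41 was higher at an unadjusted p below 0.05 (7.99% of all genes) and none lower (8.4%), and DESeq2 called none. The comparisons with WT share the WT libraries, and those with pie1-5 share its libraries.

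Medians of other lists of photosynthesis genes in pie1-5 depended on pie1-5 1. With all libraries they were −0.15 for 13 genes of electron transport and ATP synthase, −0.06 for 19 carbon fixation genes, 0.01 for 20 chlorophyll synthesis genes and −0.10 for 16 genes of assembly, repair and photoprotection, against −0.43 for the photosystem and antenna genes. Without pie1-5 1 they were −0.38, −0.31, −0.06 and −0.24 in that order, against −0.41 for the photosystem and antenna genes, so that the list of electron transport and ATP synthase lay close to them. No test of a difference between lists was made. None of the carbon fixation and chlorophyll synthesis genes was called in any mutant in the main edgeR fit. Without pie1-5 1, however, 5 carbon fixation genes (RBCS2B, RCA, GAPA1, FBA1 and SBPASE) were called lower in pie1-5 and none in pkl-1 or clf-28. Of the chlorophyll synthesis genes, HEMA1, CHLH, CHLM and CAO were then called lower in pie1-5, CAO lower and PORB higher in pkl-1, and PORA and PORB higher in clf-28. Of 13 genes of electron transport and ATP synthase, 1, FNR2, was called higher in pkl-1 and in clf-28, and none was called in pie1-5. FNR2, a ferredoxin-NADP+ reductase that takes electrons from photosystem I, measured 266, 198 and 243 CPM in pkl-1, 237, 245 and 260.1 in clf-28 and 112, 179 and 197 in pie1-5, against 133, 126 and 131 CPM in WT. All pkl-1 and clf-28 libraries were above WT (0.85 ± 0.20, adjusted p = 0.0242, and 0.92 ± 0.20, 0.0232), and the pie1-5 libraries overlapped it (0.32 ± 0.20, 0.374). The calls were lost without any single WT library, any single clf-28 library (clf-28) and pkl-1 1 or pkl-1 3 (pkl-1), with adjusted p up to 0.0931 in clf-28 and 0.106 in pkl-1. Without pie1-5 1 it was called higher in all 3 mutants, and FD1, PGR5 and PGRL1A were called lower in pie1-5. None of 16 genes of assembly, repair and photoprotection was called in any mutant in the main fit of all libraries. Without pie1-5 1, ZEP was called lower in pkl-1 and pie1-5, STN7 lower in pie1-5, and VDE1 higher in clf-28 and pie1-5.

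Among 19 regulators of photosynthesis genes, none was called in pkl-1, 1 lower in clf-28 and 2 lower in pie1-5. Without pie1-5 1, GLK2 and GNC were called lower in all 3 mutants, SIG5 in pkl-1 and pie1-5, CGA1 in clf-28 and pie1-5 and PHYA in pie1-5. GLK1 measured 82.3, 49.2 and 35.7 CPM in pie1-5, against 46.3, 52.01 and 43.6 in WT, and GLK2 39.99, 17.2 and 14.9 CPM in pie1-5, against 42.6, 48.4 and 42.98 in WT. Neither was called in pie1-5 (0.24 ± 0.23, adjusted p = 0.611, and −0.89 ± 0.28, 0.0622). In GLK2, pie1-5 2 and pie1-5 3 were far below WT and pie1-5 1 just below it. GNC, a GATA factor that promotes greening, was 2.18-fold lower at 11.5, 7.96 and 5.59 CPM in pie1-5, against 19.95, 19.8 and 14.9 in WT (−1.12 ± 0.23, 0.00754), and PHYA, the photoreceptor phytochrome A, 1.89-fold lower at 14.4, 18.9 and 15.6 CPM in pie1-5, against 34.1, 27.1 and 31.5 in WT (−0.92 ± 0.18, 0.00754). CGA1, the paralog of GNC, was called lower at 2.81, 2.14 and 2.003 CPM in clf-28, against 12.4, 10.6 and 6.06 in WT (−2.06 ± 0.51, 0.0455), a call lost without any single WT, pkl-1 or clf-28 library (adjusted p up to 0.211). The calls of GNC and PHYA stood in all 12 fits that left out 1 library. HY5, a factor of light signalling, measured 11.98, 1.85 and 1.398 CPM in pie1-5, against 2.66, 3.24 and 2.07 in WT, high only in pie1-5 1 (0.93 ± 0.58, 0.374). Without pie1-5 1, the log2 fold changes in pie1-5 were −0.15 ± 0.18 for GLK1, −1.47 ± 0.18 for GLK2, −0.71 ± 0.40 for HY5, −1.42 ± 0.21 for GNC and −0.84 ± 0.19 for PHYA, so that GLK1 and HY5 turned in direction, as did SIG5, at −1.59, against 1.32 with all libraries. The median of the 19 regulators was −0.29 without it and −0.04 with it.

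Of 13 clock genes, 5 were called higher in pkl-1, 6 in clf-28 and 4 in pie1-5, and none lower. Of all genes, 1.45%, 0.918% and 3.8% were called higher, in that order. GI, LUX, ELF4 and FKF1 were called in all 3 mutants, which share the WT libraries. In pie1-5 1, however, ELF4 stood at 0 CPM and FKF1 at 0.249 CPM, within the WT ranges of 0 to 0.0879 and 0.0750 to 0.615 CPM. GI measured 14.7, 14.2 and 16.3 CPM in pkl-1, 15.3, 17.8 and 21.5 in clf-28 and 7.003, 17.04 and 19.7 in pie1-5, against 5.55, 4.32 and 5.05 CPM in WT. Every mutant library was above every WT library (1.60 ± 0.29, 1.87 ± 0.29 and 1.55 ± 0.29 in pkl-1, clf-28 and pie1-5, adjusted p = 0.00489, 0.00294 and 0.00513). Without pie1-5 1, 8 were called higher in each mutant, and 4 lower in pkl-1, 3 in clf-28 and 3 in pie1-5, CCA1, LHY and RVE8 among them in each. In pie1-5 these 3 genes turned in direction, at −1.96, −2.03 and −1.70 on the log2 scale without pie1-5 1, against 1.47, 2.52 and 1.41 with all libraries. Among the calls with all libraries, ELF4 in clf-28 was lost without any single WT library (adjusted p up to 0.0656) and in pie1-5 without WT 1 or WT 2 (0.0540), and PRR3 in pkl-1 without WT 2 or WT 3 (0.0681). In the full set, TOC1 was called in clf-28 alone (1.86 ± 0.42, 0.0286), while CCA1 and LHY, with pie1-5 1 included, were not called in any mutant (adjusted p = 0.369, 0.583 and 0.336, and 0.488, 0.464 and 0.157).

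Of 11 other members of the antenna superfamily, none was called in pkl-1 or clf-28, and in pie1-5 LHCB2.3 was called lower and ELIP1 and ELIP2 higher. The ELIP calls rest on pie1-5 1, since without it their log2 fold changes were −0.10 and −0.80, and OHP1 and OHP2 were called lower beside LHCB2.3. Of 6 senescence genes tested, SEN1 was called lower in pkl-1 (−2.39 ± 0.50, 0.0128) and pie1-5 (−2.29 ± 0.50, 0.0124), and NYC1, a chlorophyll b reductase, higher in pkl-1 (0.77 ± 0.20, 0.0446) and clf-28 (1.44 ± 0.21, 0.001596). Without pie1-5 1, NYC1 was called higher in pie1-5 as well (0.68 ± 0.17, 0.0146). Of 4 root markers tested, PYK10 was called higher in pkl-1 (0.96 ± 0.19, 0.00987) and pie1-5 (1.25 ± 0.20, 0.00149), and of 4 flower markers tested, AP3 was called higher in pie1-5 (3.91 ± 1.04, 0.0316). Of these calls, NYC1 in pkl-1 was lost in 10 of the 12 fits that left out 1 library (adjusted p up to 0.154, called only without pie1-5 1 or pie1-5 3), PYK10 in pkl-1 without WT 1 or WT 3 (0.0666), SEN1 in pkl-1 without pkl-1 3 (0.0519) and AP3 without WT 1, WT 3, pie1-5 2 or pie1-5 3 (0.125).

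H2A.Z lies mainly over the first nucleosomes of genes, where PIE1 helps to place it. The authors' tables list regions in which 1 mutant library was set against 1 WT library, and a gene was taken to have a region where one overlapped the gene or 500 bp on either side. Between 15 and 26 of the 41 genes had an H2A.Z region in a table, that is 15 and 19 in pkl-1, 19 and 26 in clf-28 and 21 and 17 in pie1-5 (36.6% to 63.4%). Among 27444 nuclear protein-coding genes the share was 64.2% to 85.4%. The share of the set was below that of all genes in every table, a difference for which no test was made. Positions moved 20 kb up or down from the 41 genes met a region in 20 to 29 cases, also a smaller share than that of all genes. In the second table of clf-28, 23 and 28 moved positions met one, on either side of the 26 of the set. Regions in all 6 tables were listed for 12 of the 41 genes, among them LHCB1.1, LHCB1.4, LHCB6, PSAG and PSBS, and 13 had none in any, among them LHCA4, PSAD1, PSBO1, PSBP1 and PSBR. Of the 2 genes called lower in pie1-5, LHCB4.2 had a region in 1 table and LHCA4 in none.

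Regions of the 2 replicate tables could be matched for 12 of the genes in pkl-1, 16 in clf-28 and 15 in pie1-5. None of these regions was called in any mutant in the main edgeR fit (lowest adjusted p = 1.00, 0.405 and 0.276). When a region had to overlap the gene itself, without the 500 bp beside it, 6, 10 and 8 were left. None of those was called either, and the values below are for the wider rule, under which a region may belong to a neighbouring gene. Over all matched regions, 0% were called higher and 0.0101% lower in pkl-1, 0% and 0% in clf-28 and 0.0206% and 0% in pie1-5. At an unadjusted p below 0.05 there were 1, 3 and 3 regions of the set in pkl-1, clf-28 and pie1-5, and 352 of 9861, 1694 of 14539 and 1873 of 14570 among all. In pie1-5, all 15 regions of the set had a log2 fold change below 0, as did 99.2% of all matched regions. The median was −0.66 for the set and −0.73 for all. The replicates differed in the size of the ratio, since the median ratio of mutant to WT was 0.435 and 0.789 at the set in the first and the second table, and 0.449 and 0.754 over all regions. Without the pie1-5 library of the second table, 11 of the 15 regions and 13850 of all 14570 were called, but that fit held 1 pie1-5 library, assumed to vary like the 2 WT libraries, and nothing about the genotype is read from it.

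Single regions followed the same range. The region of LHCB4.1 in pie1-5 (chr5:206401-208400, TAIR10) held 6.57 and 13.6 RPM per kb in pie1-5, against 20.1 and 21.2 in WT (−1.03 ± 0.47, adjusted p = 0.276), where RPM are reads scaled to 1 M reads of the library. That of LHCA2 (chr3:22747801-22748600) held 10.3 and 19.2 RPM per kb in pie1-5, against 25.6 and 37.3 in WT (−1.09 ± 0.52, adjusted p = 0.276). In both, the pie1-5 libraries were below both WT libraries. At LHCB1.3 (chr1:10478001-10479000), pie1-5 held 14.1 and 16.6 RPM per kb and WT 13.6 and 17.2, with overlapping libraries (−0.00 ± 0.54, adjusted p = 0.997). In pkl-1 the median over the 12 regions was 0.16 on the log2 scale, against 0.00 over all, and in clf-28 −0.20 over 16, against −0.27 over all. The clf-28 tables went apart, with median ratios at the set of 0.704 and 1.096 and over all regions of 0.745 and 0.909. The 3 regions named here were chosen after their values were seen.

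**Figure D5:**
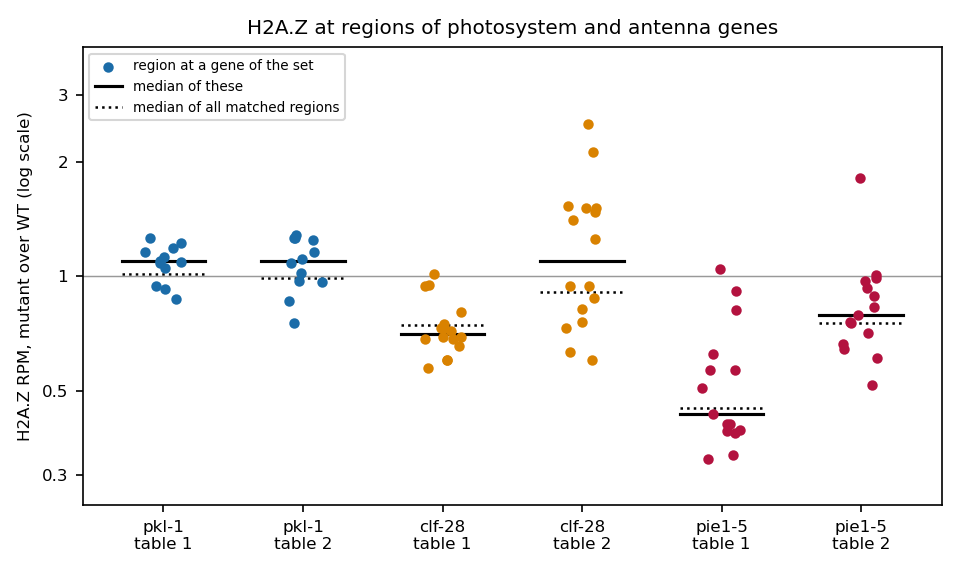
Ratio of H2A.Z RPM in the mutant to that in WT (log scale) at the matched regions of the gene set in each replicate table, with the median of the set (solid line) and of all matched regions (dotted line). In pie1-5 the medians of the set are 0.435 and 0.789 and lie beside those of all regions, 0.449 and 0.754.

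H3K27me3, the Polycomb mark of silenced genes, was next to absent from the lists at these genes. In 4 of the 6 tables no gene of the 41 had an H3K27me3 region, while 34.4% to 36.6% of nuclear protein-coding genes did in the 5 tables other than the second one of clf-28. When the positions of the 41 genes were moved 20 kb up or down, 12 to 15 of them met a region in those 5 tables. In the first table of pie1-5, a region (chr1:16864801-16870200) reached PSBS or the 500 bp beside it, and did not cover the whole gene. It held 21.5 RPM per kb in pie1-5 and 17.3 in WT, an authors' ratio of 1.24. The second table of clf-28, whose clf-28 library held 3174679 reads, the fewest of all H3K27me3 libraries, listed 20 of the 41 genes (and 43.6% of all). The WT library held only 8 to 138 reads in those regions, a median of 2.69 RPM per kb, against 17.9 over all regions of that table, and clf-28 held 38 to 324 reads, with authors' ratios of 2.51 to 23.3. The first table of clf-28 listed none of the 41. All 6 tables used 1 and the same WT library, with 13589567 reads, so H3K27me3 has no replicate check in WT and was not tested.

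Of the 41 genes, 15 overlap another annotated gene in TAIR10.1, LHCA4, LHCB4.2, LHCB6, PSAE2, PSAG and PSAN among them. The cDNA kit does not mark strand, so reads of such pairs cannot be told apart. The series calls the libraries of a genotype independent biological replicates.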

How the data were processed

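Gene counts of 12 RNA-seq libraries were deposited by the authors as raw counts per gene, and the authors' comparison table gives log2 fold changes and p-values (FDR). Per the file headers, the ChIP tables list read counts, RPM values scaled to the library, ratios of mutant to WT and p-values (FDR) in windows joined to regions. The submitters' processing notes name Trimmomatic, Bowtie2, edgeR, SICER, bedtools, deepTools and TAIR10, and do not name the read counter or its treatment of reads that map to several places.

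Counts were fitted with edgeR 4.0.16 (R 4.3.3, TMM factors, default filter with a minimum count of 10, quasi-likelihood F test) in 1 fit of all 12 libraries. P-values were adjusted by Benjamini-Hochberg over the 20375 genes tested, and called below 0.05. SE is the log2 fold change over the root of F. DESeq2 1.42.0 was an alternative. H2A.Z regions were matched between replicate tables by best overlap both ways (at least 50% of the shorter) and tested with edgeR on library totals with region length as offset. The ChIP flank was 500 bp on both sides because the reference names no strand. RefSeq TAIR10.1, whose nuclear chromosomes are those of TAIR10, was used for names, gene spans and neighbours, and all 41 identifiers matched. The scripts were tested on simulated data. The members and gene lists were chosen with earlier results of these data known. Named were the called genes, the extremes of each role and of each mutant, PSBS, LHCB7 and 6 fixed regulators, and any other gene named was chosen after its values were seen. The H3K27me3 test planned was not made, since all tables share 1 WT library.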

Additional observations from a re-analysis of the deposited data

How the results depend on the processing

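Numbers of the 41 genes called moved with the fit. The shares of all genes called in these alternative fits are not given here. In pie1-5 against WT (2 called), DESeq2 gave 11, a replicate block 4, only the 2 genotypes compared 0, and leaving out 1 library 0 to 6. No filter on low counts gave 3 there, LHCA4, LHCB2.1 and LHCB2.2, without LHCB4.2. In pkl-1 against WT (0), DESeq2 gave 1, the replicate block 1, only the 2 genotypes 2, and leaving out 1 library 0 to 1. In pkl-1 against clf-28 (0), no filter on low counts gave 1 and only the 2 genotypes 1. In pkl-1 against pie1-5 (5), only the 2 genotypes gave 0 and leaving out 1 library 0 to 5. In clf-28 against pie1-5 (1), DESeq2 gave 8, no filter 2, only the 2 genotypes 0 and leaving out 1 library 0 to 3. In clf-28 against WT every alternative run gave 0. Counting without plastid and mitochondrial genes gave the same number in all 6 comparisons. For H2A.Z regions, the replicate block gave 1 in pkl-1 (0 without it), and leaving out 1 library 0 to 11 in pie1-5 (11 without pie1-5 2). The cause was not tested. The 11 come from a fit of 1 pie1-5 library, assumed to vary like the 2 WT libraries, in which 13850 of 14570 regions were called. In pie1-5 against WT, the log2 fold change turned in direction when 1 library was left out for 4 of the 41 genes and for 64 of 125 genes of the other lists, 36 of these without pie1-5 1. In pkl-1 it did so for 15 and 35, and in clf-28 for 13 and 27. Among genes described in pie1-5, the 12 fits that left out 1 library ran from −1.96 to 2.02 for CCA1, −2.03 to 3.09 for LHY, −1.70 to 1.95 for RVE8, −0.10 to 4.196 for ELIP1, −0.80 to 4.53 for ELIP2, −0.15 to 0.48 for GLK1 and −0.71 to 1.38 for HY5, each lowest without pie1-5 1. They ran from −0.19 to 0.031 for PSBQ1, −0.85 to 0.0058 for LHCB4.3, −0.66 to 0.077 for LHCB7 and −0.39 to 0.12 for PSBS in pie1-5, and from −0.25 to 0.0089 for PSBS in pkl-1. LHCB7 was above 0 without WT 3 or pie1-5 2 (0.063), PSBS in pie1-5 without pie1-5 2 or pie1-5 3 (0.012) and in pkl-1 without pkl-1 2, and PSBQ1 and LHCB4.3 without pie1-5 3. Against WT, the median of the 41 genes stayed below 0 in each fit that left out 1 library, between −0.51 and −0.37 in pie1-5, −0.14 and −0.05 in pkl-1 and −0.23 and −0.04 in clf-28. In pkl-1 against clf-28 it was 0.035 with all libraries and turned to −0.033 without clf-28 3 and −0.013 without pkl-1 1. The main fit did not pair libraries by replicate number. Deviations of same-numbered libraries correlated at −0.046 to 0.125 over 18 pairs and those of other pairs at −0.099 to 0.076 over 36. The highest value was that of clf-28 3 with pie1-5 3. These ranges overlap, and whether replicate numbers pair the libraries was not tested. The alternatives planned for H3K27me3 were not run, because 1 WT library served all tables.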
